A study of Mus musculus with 40 samples.

Results

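The growth hormone, STAT5 and IGF1 axis was followed in the liver through 10 genes, chosen by symbol from the 21448 gene symbols of the probe counts: Ghr, Jak2, Stat5a, Stat5b, Socs2, Cish, Bcl6, Cux2, Igf1 and Igfals. Livers came from wild-type Crl:CD1(ICR) mice, an outbred stock, given GenX, a perfluorinated ether carboxylate, by oral gavage for 90 days. The daily doses were 0.1 mg/kg, 0.5 mg/kg and 5 mg/kg of body weight, and control mice received deionized water. Each of the 8 groups held 5 mice of 1 sex, the first by animal number, and each mouse gave 1 fixed, paraffin-embedded section, so that n counts separate animals. TempO-Seq was used, in which a pair of probes that bind side by side on an RNA is joined, amplified and sequenced, and reads are counted on each probe. The library of mouse 355, a female at 0.5 mg/kg, was left out for its low depth, which leaves 4 mice in that group.

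Growth hormone from the pituitary binds its receptor on hepatocytes and activates the kinase JAK2, which phosphorylates STAT5A and STAT5B. These enter the nucleus and induce IGF1, the acid-labile subunit that keeps IGF1 in the circulation, and the inhibitors SOCS2 and CISH that damp the signal. In rodents the secretion of growth hormone is pulsatile in males and more continuous in females, and through STAT5, BCL6 and CUX2 this pattern sets much of the sex difference of liver genes.

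STAT5 dimers bind palindromic sites of the form TTCNNNGAA, a motif that reads the same on both strands. It was searched in RefSeq promoter windows of the mouse genome (GRCm38.p6) that span 250 bases before to 50 bases after a transcription start. Of 32851 such windows, 8.3% held at least 1 match. Entries were present for 9 members, and Socs2 had none. Of the 16 windows of these members, 5 held a match, and these belonged to Cish, Bcl6 and Igfals. The stretches with the matches are shown because they mark which members carry these letters next to a start. Capitals mark the match, and each is written 5′ to 3′ on the strand of the gene.
Cish, chr9:107296654-107296683, plus strand, 2 matches at the start: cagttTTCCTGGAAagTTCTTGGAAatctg
Bcl6, chr16:23981433-23981461, minus strand, 168 bases before the start: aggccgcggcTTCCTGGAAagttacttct
Bcl6, chr16:23981387-23981415, minus strand, 122 bases before the same start: ggcaggagtgTTCTGTGAAatccttagag
Bcl6, chr16:23981353-23981381, minus strand, 88 bases before the same start: atcgactacgTTCCGGGAAtgagagggct
Bcl6, chr16:23988952-23988980, minus strand, 118 bases before the other start: agcaaattagTTCTCAGAAttccagaggc
Igfals, chr17:24877598-24877626, plus strand, 236 bases before a start: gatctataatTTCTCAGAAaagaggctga
Igfals, chr17:24878163-24878191, plus strand, 58 bases before another start: ctgccaggtgTTCCTAGAAgaggccctgg
No match was found in the windows of Ghr, Jak2, Stat5a, Stat5b, Cux2 and Igf1, which says only that these letters are not in those windows.

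The 39 libraries held 10341341 to 15562253 reads. Between 10 and 120 reads, counts were most frequent at a value of 21 to 50 reads, by library. This value is taken as the number of reads from 1 captured molecule, and further peaks at its multiples were not searched for. A member with few molecules is then measured less precisely than its reads appear to allow. Males at 5 mg/kg had a median of 580385 molecules and male controls 329378, and the part of this difference in the results was not tested. The sex labels were matched by Ddx3y, a Y-linked gene, with reads in 20 of 20 males and 0 of 20 females. All 10 members passed the filter on low counts on their most counted probe, as did their 19 probes. Levels are normalized counts per 1000000 reads (CPM), and compare mice for 1 gene, not genes with each other. Because levels are shares of a library, a lower level does not by itself mean fewer captured molecules. Fewer cells of a type and less RNA per cell cannot be told apart in sections.

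Igf1 was lower in treated males and was the member with the clearest response. The gene (chromosome 10, 87858265 to 87937042, GRCm38) encodes insulin-like growth factor 1, the main hormone that the liver releases under growth hormone. Male controls had 70.2, 106, 104, 123 and 111 CPM, and males at 5 mg/kg had 21.9, 33.4, 51.1, 55.9 and 40.8 CPM. Every male at 5 mg/kg was below every male control. The difference was -1.34 ± 0.23 (SE) on the log2 scale, with an adjusted p of 3.79e-05 by edgeR's quasi-likelihood test. Means were 103 ± 19.6 CPM (SD, n = 5) in controls and 40.6 ± 13.7 CPM (SD, n = 5) at 5 mg/kg. Of all genes tested, 9.35% were called in this comparison and 3.75% were called lower, and 9.31% had groups that did not overlap.

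At the lower doses in males the group means of Igf1 lay in between, at 84.7 ± 22.6 CPM and 64.4 ± 10.9 CPM (SD, n = 5), while single mice overlapped neighboring groups. Males at 0.1 mg/kg had 76.5, 89.4, 121, 73.3 and 62.9 CPM, with a log2 fold change of -0.28 ± 0.23 (SE). Males at 0.5 mg/kg had 71.3, 77.8, 60.4, 63.3 and 49.3 CPM. Their log2 fold change of -0.68 ± 0.23 (SE) did not pass the threshold of 0.1, with an adjusted p of 0.158. Without control mouse 101, which had the lowest control value, it was -0.79 and passed. The direct comparison of 5 with 0.5 mg/kg gave -0.67 ± 0.23 (SE) on the log2 scale, with an adjusted p of 0.17, and passed without mouse 404, at -0.81.

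Igf1 values in females at 5 mg/kg were lower by a smaller amount that did not pass the test. Female controls had 87.9, 83.5, 85.6, 78.8 and 112 CPM, and females at 5 mg/kg had 66.0, 32.1, 49.4, 65.5 and 76.2 CPM. The groups did not overlap, although the highest treated mouse was close to the lowest control. Relative to controls the log2 fold change was -0.63 ± 0.23 (SE), with an adjusted p of 0.178. Igf1 passed with counts in molecules, a fit for which the share of all genes called was not taken. Of all genes, 3.71% had groups that did not overlap in this comparison. Females at 0.1 mg/kg had 80.5, 103, 115, 61.5 and 93.6 CPM and those at 0.5 mg/kg had 80.5, 94.9, 58.8 and 52.1 CPM, and both groups overlapped the controls. The female effect minus the male effect at 5 mg/kg was 0.71 ± 0.32 (SE) on the log2 scale with an adjusted p of 0.36, so a sex difference in the response of Igf1 was not shown. The other probe of Igf1 had 2.00 molecules over the males at 5 mg/kg and none in male controls, too few to serve as a check.

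**Figure D1:**
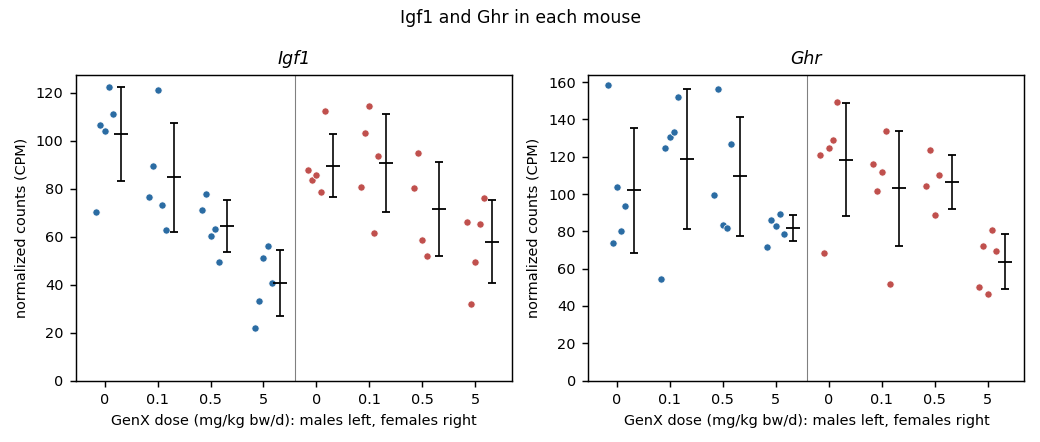
Normalized counts (CPM) of Igf1 and Ghr in each mouse by dose of GenX, males in blue and females in red, with the group mean and SD in black. All males at 5 mg/kg lie between 21.9 and 55.9 CPM for Igf1, below the lowest male control at 70.2 CPM, and females at 5 mg/kg lie between 46.4 and 80.9 CPM for Ghr.

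Ghr was lower in females at 5 mg/kg. It encodes the growth hormone receptor (chromosome 15, 3317760 to 3583492), the entry point of the pathway. Female controls had 121, 68.3, 125, 129 and 149 CPM, and females at 5 mg/kg had 50.3, 72.0, 46.4, 80.9 and 69.4 CPM. The groups overlapped through 1 control at 68.3 CPM. On the most counted probe the log2 fold change was -0.89 ± 0.24 (SE), with an adjusted p of 0.0227, in a comparison in which 4.09% of all genes were called and 2% were called lower. The other probe of Ghr gave -0.64 ± 0.18 (SE) on the log2 scale with an adjusted p of 0.0326, and there the groups did not overlap. With the library of mouse 355 put back, the log2 fold change was -0.89 and did not pass.

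Ghr did not pass the test in males at any dose. Males at 5 mg/kg had 71.6, 86.2, 82.6, 89.5 and 78.5 CPM, and male controls had 158, 73.6, 104, 80.3 and 93.6 CPM. All but the lowest treated male lay within the range of the controls. The log2 fold change was -0.32 ± 0.24 (SE), with an adjusted p of 0.566. The female minus male effect was -0.57 ± 0.33 (SE) on the log2 scale, with an adjusted p of 0.49. At 0.1 and 0.5 mg/kg, the log2 fold changes of Ghr lay between -0.20 and 0.22 over both sexes.

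The kinase and the transcription factors of the pathway did not pass the test at 5 mg/kg in either sex. Jak2 (chromosome 19, 29251828 to 29313080), the kinase bound to the receptor, had log2 fold changes of -0.40 ± 0.73 (SE) in males and -0.39 ± 0.72 (SE) in females. Stat5a gave -0.79 ± 0.54 (SE) in males and 0.13 ± 0.54 (SE) in females on the log2 scale. Stat5b, the STAT5 form that prevails in the liver, gave -0.17 ± 0.70 (SE) and -0.61 ± 0.70 (SE). With medians of 3.89 to 5.11 molecules per mouse for these 3 genes, the errors do not separate a change of 1 on the log2 scale from none.

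At 0.5 mg/kg, the most counted probe of Stat5a was low in males without passing, and its other probes were not low. Male controls had 22.4, 19.9, 9.60, 22.4 and 12.01 CPM, and males at 0.5 mg/kg had 2.29, 9.88, 7.18, 5.64 and 3.79 CPM. Only the highest treated mouse, at 9.88 CPM, was above the lowest control. The log2 fold change was -1.58 ± 0.55 (SE), with an adjusted p of 0.173, and it passed with DESeq2 at -1.64. The other 2 probes of Stat5a, with means of 4.50 and 4.88 CPM in male controls and 5.02 and 5.32 CPM at 0.5 mg/kg, were not lower, with log2 fold changes of 0.16 ± 0.58 (SE) and 0.12 ± 1.20 (SE). Of all genes, 2.61% were called at this dose in males. At 5 mg/kg the Stat5a values were 12.8, 10.6, 13.5, 8.24 and 4.79 CPM, so they were not lower than at 0.5 mg/kg.

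**Figure D2:**
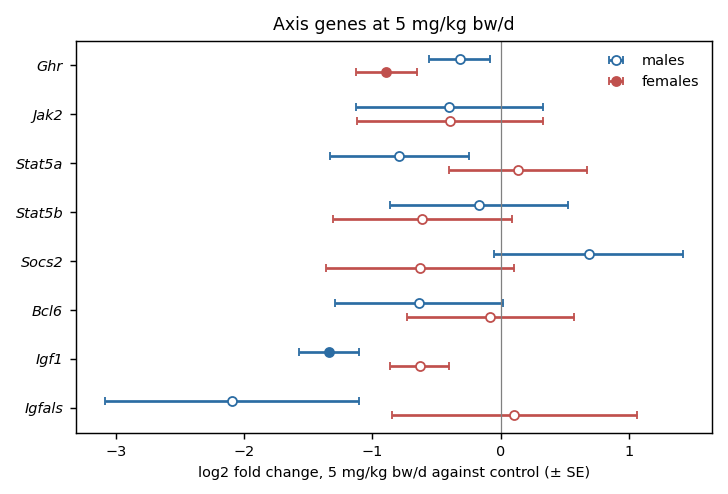
Log2 fold change at 5 mg/kg bw/d against controls of the same sex for 8 members, with SE bars, males in blue and females in red, filled where the adjusted p was below 0.1. Only Igf1 in males, at -1.34, and Ghr in females, at -0.89, are filled; Cish and Cux2 are left out because groups of theirs had no reads.

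The feedback inhibitors showed wide scatter between mice. Socs2, which is induced by STAT5 and restrains growth hormone signaling, had 4.01, 8.35, 2.42, 18.9 and 3.52 CPM in male controls and 16.6, 3.39, 22.1, 11.9 and 5.91 CPM in males at 5 mg/kg. In female controls it had 17.3, 23.3, 40.5, 34.2 and 32.6 CPM, and in females at 5 mg/kg 30.5, 3.28, 36.9, 17.1 and 7.88 CPM. The groups overlapped in both sexes. The log2 fold changes were 0.68 ± 0.74 (SE) in males and -0.63 ± 0.73 (SE) in females, and neither passed.

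Socs2 values were higher in female than in male controls, with 1 male among the female values. The log2 difference, female over male, was 1.99 ± 0.76 (SE), with an adjusted p of 0.203 in a comparison in which 3.89% of all genes were called. Without male control 104, the highest of the males at 18.9 CPM, it was 2.69 and passed. It also passed without a filter on low counts, with the 2 control groups fitted alone, with probes summed by gene and in units of molecules. It did not pass in every fit. DESeq2 called 1 member in this comparison, so it did not call both Socs2 and Cux2.

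Cish, the other STAT5-induced inhibitor, was near the limit of detection. Its most counted probe had reads in 11 of the 39 mice. In males, 2 control mice had 14.1 and 4.34 CPM and 3 had none, and at 5 mg/kg 3 mice had 7.16, 5.80 and 3.34 CPM and 2 had none. In females, 1 control had 3.23 CPM on this probe, and no mouse at 0.1 or 5 mg/kg had reads on it. The other Cish probe had reads in 3 female controls, 1 female at 0.1 mg/kg and 2 at 5 mg/kg. Its means were 1.44 CPM in female controls and 1.61 CPM in females at 5 mg/kg. No fold is given for Cish in females, since both groups were at or under 3 molecules, and a change was not detectable at this depth.

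Bcl6, a repressor that is more abundant in male liver and falls with continuous growth hormone, differed more between mice of a group than between groups. Male controls had 205, 115, 194, 27.4 and 7.14 CPM, and males at 5 mg/kg had 12.7, 103, 21.1, 81.4 and 134 CPM. Female controls had 42.3, 58.7, 89.2, 27.4 and 82.8 CPM, and females at 5 mg/kg 53.1, 107, 29.3, 54.8 and 39.96 CPM. The log2 fold changes were -0.64 ± 0.65 (SE) in males and -0.08 ± 0.65 (SE) in females. The female over male difference in controls was -0.87 ± 0.66 (SE) on the log2 scale and did not pass.

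**Figure D3:**
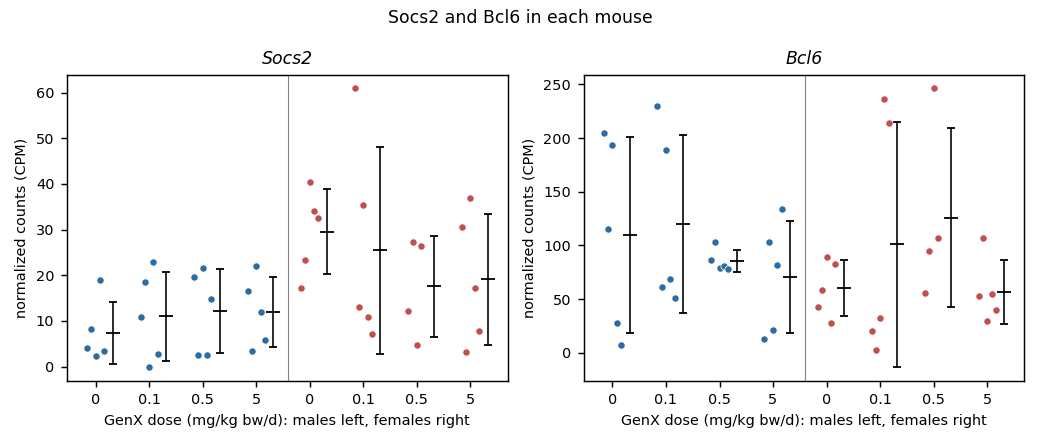
Normalized counts (CPM) of Socs2 and Bcl6 in each mouse by dose, males in blue and females in red, with the group mean and SD in black. Bcl6 ranged from 7.14 to 205 CPM among the male controls alone, and the Socs2 values of female controls, 17.3 to 40.5 CPM, overlap 1 male control at 18.9 CPM.

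Cux2 was higher in female than in male controls. It encodes a transcription factor that is specific to female liver and acts on sex-biased genes. Female controls had 4.34, 17.6, 22.7, 11.1 and 5.45 CPM, and no male control had a read. The difference was at least 6.49-fold, against a floor of 3 molecules over the group of male controls, with an adjusted p of 0.0332. Another Cux2 probe was also called, with an adjusted p of 0.0427, and the remaining probe was not, with an adjusted p of 0.217. Of all genes, 3.89% differed between the control sexes, with 2.37% higher and 1.52% lower in females. Among treated males, 1 mouse at 0.1 mg/kg had 3.78 CPM and the other mice had no reads.

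Fewer treated females had reads of Cux2 than control females. Females at 0.1 mg/kg had 7.78, 2.58, 17.9, 0 and 12.3 CPM, those at 0.5 mg/kg 7.40, 0, 0 and 3.46 CPM, and those at 5 mg/kg 0, 0, 7.09, 0 and 2.87 CPM. The log2 fold change at 5 mg/kg was -2.62 ± 1.97 (SE), with an adjusted p of 0.724, so a decrease was not shown. The other probes fell less, with means of 5.39 and 2.63 CPM at 5 mg/kg against 9.41 and 3.27 CPM in female controls. At 5 mg/kg they had reads in 2 and 1 of 5 mice, with highest values of 19.4 and 13.1 CPM. At 5 mg/kg the most counted probe did not pass between the sexes, with an adjusted p of 0.144, where 2.07% of all genes were called. Another probe did, with an adjusted p of 0.0848.

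Igfals, the acid-labile subunit that extends the life of IGF1 in blood, had low counts. Its means did not follow the order of the doses in either sex. In controls and at 0.1, 0.5 and 5 mg/kg they were 10.6, 4.44, 6.35 and 2.47 CPM in males. The female means, in the same order, were 4.38, 10.05, 10.2 and 4.71 CPM. Male controls had 7.94, 18.8, 17.1, 5.64 and 3.43 CPM, and males at 5 mg/kg had 2.43, 2.49, 0, 3.27 and 4.15 CPM. Of the males at 5 mg/kg, 1 mouse was above the lowest control. The log2 fold change was -2.09 ± 0.99 (SE), with an adjusted p of 0.204, and it passed with DESeq2 at -2.19. In females the values at 5 mg/kg were 2.71, 6.06, 3.74, 9.00 and 2.06 CPM, against 7.82, 4.72, 5.02, 1.75 and 2.59 CPM in controls, and the log2 fold change was 0.11 ± 0.95 (SE).

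**Figure D4:**
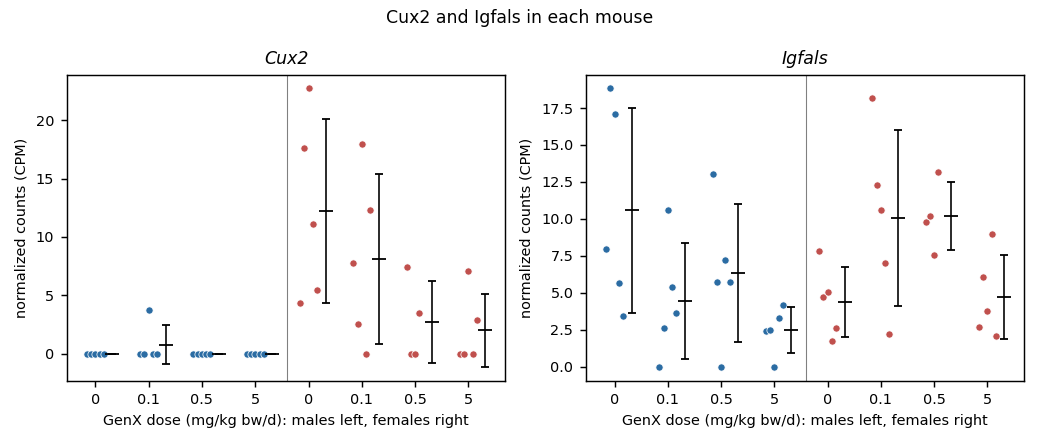
Normalized counts (CPM) of Cux2 and Igfals in each mouse by dose, males in blue and females in red, with the group mean and SD in black. Cux2 had no reads in 19 of 20 males and 4.34 to 22.7 CPM in female controls, and Igfals lay between 0 and 4.15 CPM in males at 5 mg/kg.

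Over the 10 members, 1 was called at 5 mg/kg in each sex, Igf1 in males and Ghr in females. Over all genes the shares called were 9.35% in males and 4.09% in females, so 1 of 10 is about the background in males, and with 10 members 1 call in females cannot be set apart from it. DESeq2 called 2 members in each sex, beside 11.5% of all genes in males and 6.03% in females. The median log2 fold change of the members was -0.36 in males and -0.62 in females, beside medians of 0.11 and -0.01 over all genes tested. With Cish in females held at its bound, the female median was -0.50.

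At 0.1 mg/kg no member was called by edgeR in either sex, where the males had 0.0403% of all genes called and the females 0%. An unadjusted p below 0.05 was found for 1 member in each sex, beside 12.9% of all genes in males and 9.6% in females. DESeq2 called 0 members in males, beside 1.43% of all genes, and 1 in females, beside 0.878%. At 0.5 mg/kg edgeR called 0 members in both sexes, beside 2.61% of all genes in males and 0.201% in females. Without adjustment, the p was below 0.05 for 2 members and 18% of all genes in males, and for 0 members and 9.83% of all genes in females. DESeq2 called 2 members in males, beside 5.07% of all genes, and 0 in females, beside 1.6%. The counts of members at an unadjusted p were near the background at both doses or below it. All dose comparisons of a sex share the same controls.

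No member was called between 5 and 0.5 mg/kg, where the males had 3.01% of all genes called and the females 1.38%. An unadjusted p below 0.05 was found for 1 member in males, beside 15.9% of all genes, and for 2 in females, beside 13.8%. DESeq2 called 1 member in each sex, beside 4.92% and 3.4% of all genes. The female minus male effect called 0 members with edgeR at 0.1, 0.5 and 5 mg/kg, beside 0%, 0.322% and 1.19% of all genes. At each dose 1 member had an unadjusted p below 0.05, beside 7.98%, 10.7% and 12.6% of all genes. DESeq2 called 1, 0 and 1 members, beside 1.12%, 2.26% and 3.24%. Between the sexes at 5 mg/kg DESeq2 called 1 member, beside 3.78% of all genes.

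Genes next to the pathway were read from lists chosen with earlier results of these data known. Among 20 other genes of cytokine receptor signaling, 19 were tested. In males at 5 mg/kg, 2 were called higher and 1 lower, beside 5.59% and 3.75% of all genes, and in females 1 higher and 3 lower, beside 2.09% and 2%. Stat3, which carries interleukin 6 signals, fell in both sexes, by 0.79 ± 0.21 (SE) in males and 0.75 ± 0.21 (SE) in females on the log2 scale. Prlr, the prolactin receptor, fell by 0.87 ± 0.25 (SE) in females, from 228 ± 74.2 to 125 ± 15.2 CPM (SD, n = 5). Shc1, an adaptor of receptor kinases, fell by 0.73 ± 0.20 (SE) in females. Ptpn11, a phosphatase in growth factor signaling, rose by 0.69 ± 0.20 (SE) in males. Lepr, the leptin receptor, had no reads in male controls and reached 1.74 ± 1.95 CPM (SD, n = 5) at the top dose, and it was called at an adjusted p of 0.0158, with no fold given because the level is below the floor of the controls. Grb10, an adaptor that binds the insulin and IGF1 receptors, rose in females from 3.27 ± 2.55 to 25.8 ± 3.96 CPM (SD, n = 5), with an adjusted p of 0.0999. The median over the list was 0.05 in males and -0.03 in females on the log2 scale, or 0 and -0.02 with genes that lacked reads in a group at their bound.

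Of 14 other IGF system genes, 11 were tested, and 2 fell in males and 1 in females, beside 3.75% and 2% of all genes. Igfbp3, the main binding protein of IGF1 in blood, fell in males by 0.90 ± 0.26 (SE) on the log2 scale, from 52.3 ± 11.9 to 28.04 ± 7.11 CPM (SD, n = 5). Igfbp4, an inhibitory binding protein, fell by 0.78 ± 0.15 (SE) in males and by 0.75 ± 0.15 (SE) in females. Its groups did not overlap in either sex, beside 9.31% of all genes in males and 3.71% in females. In females the lowest control had 907 CPM and the highest mouse at 5 mg/kg 904 CPM. The remaining 9 in males and 10 in females did not pass. The list median was -0.32 in both sexes, and in females it was 0 with genes that lacked reads in 1 group at their bound.

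Among 10 liver transcription factors, 3 fell at 5 mg/kg in males and 1 did so in females, where 3.75% and 2% of all genes were called lower. Hnf4a, a master regulator of hepatocyte genes, fell by 0.80 ± 0.16 (SE) in males and 0.56 ± 0.16 (SE) in females on the log2 scale. Cebpa and Foxa1, which open and maintain liver enhancers, fell by 0.81 ± 0.20 (SE) and 0.79 ± 0.25 (SE) in males. The list median was -0.33 in males and -0.38 in females.

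Sex-biased liver genes are the best known readout of the growth hormone pattern. Many belong to families of near-identical copies (Mup, Serpina1, Cyp2b, Cyp3a and Cyp4a), among which probes may share reads, so single genes of these families are uncertain. In controls, 9 of 14 tested genes of the male-biased list were lower in females, beside 1.52% of all genes. Of the female-biased list, 14 of 18 were higher in females, beside 2.37% of all genes. Both lists were defined by sex bias and chosen with earlier results of these data known. Shares above those of all genes were therefore built in for the control sexes and are no test of enrichment. For treated mice too, the shares of all genes beside these lists are a description, because the choice of genes was not blind to the data.

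Of the 14 male-biased genes, 9 fell and 1 rose in males at 5 mg/kg. Hsd3b5, a male-specific steroid enzyme, had 6.47 ± 8.40 CPM (SD, n = 5) in controls and no reads at 5 mg/kg, a level at least 6.46-fold lower, with an adjusted p of 0.0264. Only 3 of the controls had reads, and without control 104, at 19.7 CPM, the bound was 3.16-fold. Elovl3, a fatty acid elongase, fell by 3.32 ± 0.58 (SE) on the log2 scale, from 1118 ± 549 to 112 ± 77.5 CPM (SD, n = 5). Cyp7b1, an oxysterol hydroxylase, fell by 2.91 ± 0.48 (SE), or by 3.51 without mouse 403 at 5 mg/kg, and Mup3, a major urinary protein, fell by 3.77 ± 0.34 (SE). Serpina1e and Egfr fell in both sexes, Egfr by 1.63 ± 0.28 (SE) in males and 1.61 ± 0.28 (SE) in females. Serpina1e and Egfr did not differ past the threshold between the control sexes. Cyp4a12b, a fatty acid hydroxylase of a family that responds to peroxisome proliferators, rose by 1.65 ± 0.55 (SE). The list median was -1.40 on the log2 scale, beside 0.11 over all genes, of which 3.75% were called lower and 5.59% higher.

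In females at 5 mg/kg, 3 of the 14 male-biased genes fell and 2 rose. Cyp4a12a had 0.03 ± 0.04 CPM in female controls and 149.6 ± 61.0 CPM at 5 mg/kg (SD, n = 5), and Cyp4a12b had no reads in controls and was at least 16.1-fold higher. Mup3 fell by 1.55 ± 0.31 (SE) on the log2 scale. The list median was -0.38, and of all genes 2% were called lower and 2.09% higher.

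Of the 18 tested female-biased genes, 5 rose in males at 5 mg/kg and none fell, where 5.59% of all genes were called higher. Cyp2b9, a cytochrome P450, rose from 3.16 ± 5.53 to 69.3 ± 15.9 CPM (SD, n = 5), by 4.46 ± 0.83 (SE) on the log2 scale, and by 6.50 without control 102, which had 12.8 CPM while 3 controls had no reads. Hao2, a peroxisomal hydroxy acid oxidase, and Cyp2b13 had no reads in male controls and were at least 12.1-fold and 3.01-fold higher. A1bg had no reads in male controls and 1.13 ± 1.89 CPM (SD, n = 5) at 5 mg/kg, with an adjusted p of 0.0417 and no fold given. The remaining gene called was Cyp2a4, a P450 with a near-identical copy, which the naming rule leaves out and which was named after its values were seen. The list median was 1.66 on the log2 scale, and 0 with the 9 genes that lacked reads in 1 group or both at their bound.

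In females at 5 mg/kg, 4 of the 18 female-biased genes fell and none rose, where 2% of all genes were called lower. Cyp3a44 had 36.5 ± 14.03 CPM (SD, n = 5) in controls and no reads at 5 mg/kg, at least 20.6-fold lower. Cyp3a41a, from the same P450 cluster, fell by 3.19 ± 0.38 (SE) on the log2 scale. Sult3a1, a sulfotransferase, fell by 2.84 ± 0.75 (SE). Without mouse 451, the highest at 5 mg/kg for both genes, Cyp3a41a fell by 4.19 and Sult3a1 by 4.02. The list median was -1.69, and -1.08 with genes at their bound.

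**Figure D5:**
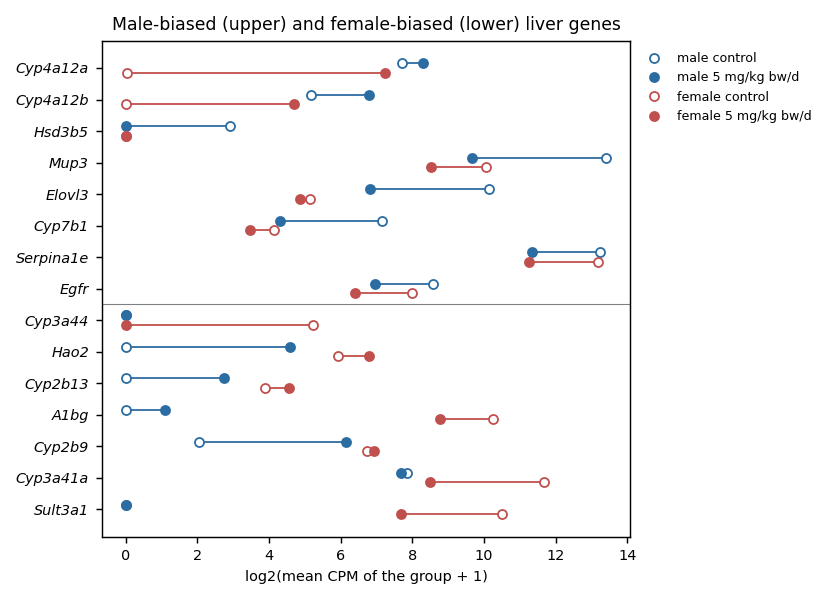
Group means of 8 male-biased genes (upper) and 7 female-biased genes (lower) as log2(mean CPM + 1), with controls as open points, 5 mg/kg bw/d as filled points and a line for each sex. Elovl3 and Cyp7b1 in males shift toward the female control level, and Mup3 ends below it, at 804 against 1067 CPM. Cyp4a12a and Cyp4a12b in males rise away from the female control level, and Serpina1e, Egfr and Mup3 fall in both sexes. Hao2 and Cyp2b9 in males shift toward the female control level from low levels. Cyp4a12a in females rises to near the male level, and Cyp3a44 and Cyp3a41a fall in females.

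Some of these calls rest on single mice. Of 24 calls that the naming rule gave over these lists and the marker lists in males at 5 mg/kg, 18 passed whichever mouse was left out, and of 17 in females, 12 did. Grb10 in females was lost in 9 of 10 cases and Cyp4a12b in males in 6 of 10. Foxa1 was lost without male control 104 or males 402 or 403 at 5 mg/kg, Ptpn11 without male control 102 and A1bg without male 403 at 5 mg/kg. Prlr was lost without female controls 151 or 154, Stat3 in females without control 152 or mice 454 or 455 at 5 mg/kg, and Hnf4a in females without control 152 or mouse 451 at 5 mg/kg. The calls of Igf1 in males and Ghr in females held in each case.

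Markers of liver cell types moved beside these results. Of all genes at 5 mg/kg, edgeR called 3.75% lower and 5.59% higher in males, and 2% lower and 2.09% higher in females. DESeq2 called 11.5% in males and 6.03% in females. Lists this short cannot set 1 call or none apart from these shares. Of 6 tested hepatocyte markers, 2 fell in each sex at 5 mg/kg, Cps1 by 1.18 ± 0.24 (SE) in males and 1.02 ± 0.24 (SE) in females and Serpina1a by 1.65 ± 0.20 (SE) and 2.08 ± 0.21 (SE) on the log2 scale. The summed level of the list was 7856 to 8795 CPM in male controls and 6478 to 7748 CPM in males at 5 mg/kg, and 8890 to 9870 and 7237 to 9263 CPM in the females. Summed over the list, Kupffer cell markers had 49.0 to 109 CPM in male controls and 46.6 to 68.2 CPM in males at 5 mg/kg, endothelial markers 159 to 187 and 92.4 to 178 CPM, and proliferation markers 0 to 2.71 and 23.4 to 70.7 CPM. In the females the sums were 75.5 to 215 and 86.99 to 160 CPM for Kupffer cells, 182 to 222 and 148 to 216 CPM for endothelial cells and 0 to 10.6 and 0 to 33.5 CPM for proliferation. In males, 1 of 6 endothelial markers (Clec4g) and 1 of 7 stellate cell markers (Ecm1) also fell and 1 of 4 proliferation markers (Top2a) rose, from no reads to 13.4 ± 6.44 CPM (SD, n = 5), at least 7.10-fold. The call of Clec4g was lost in 5 of 10 cases with 1 mouse left out, that of Ecm1 without males 402 or 403 at 5 mg/kg and that of Cps1 in females without control 155. None of the 7 tested Kupffer cell, 3 cholangiocyte and 5 lymphocyte markers was called in either sex with edgeR, and DESeq2 called 1 Kupffer cell marker in males. Stellate cell markers summed to 284 to 363 CPM in male controls and 193 to 323 CPM in males at 5 mg/kg, and to 281 to 438 and 223 to 289 CPM in the females, where edgeR called 0 of the 7, 1 had an unadjusted p below 0.05 and DESeq2 called 1. At an unadjusted p below 0.05 the Kupffer cell, cholangiocyte and lymphocyte lists had 2, 1 and 1 genes in the males and 0, 1 and 3 in the females. The share of all genes at that threshold was not taken at 5 mg/kg. The 4 adipocyte markers did not pass the filter. The part of any of these in the results on the axis was not tested.

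The genes whose log2 CPM followed a member most closely over the 39 libraries are given as a description. For Igf1 they included Serpinc1 (Pearson's r 0.86, Spearman's rho 0.80) and Ahsg (0.85 and 0.87). For Socs2 they were Eif4b (0.67 and 0.42), Clcn7 (0.65 and 0.52) and Tox (0.62 and 0.61), and for Cux2 Akt1 (0.80 and 0.74), Rsph4a (0.78 and 0.76) and Sult3a1 (0.75 and 0.78). The points share the differences between sexes and doses.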

How the data were processed

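The deposited table holds counts of reads for 30146 TempO-Seq probes in each mouse, which the authors did not normalize. The submitters' processing notes name bcl2fastq 2.17.1.14, Bowtie and the build mm10. Following the study's depth criterion of 2 SD under the average total, the library of mouse 355, with 6711981 reads, was left out. Here the counts were tested in R 4.3.3 with edgeR 4.0.16 (TMM, its default filter on low counts, 1 coefficient per group over all groups, quasi-likelihood F-test). P values are two-sided and adjusted by Benjamini and Hochberg over 17877 probes, with a threshold of 0.1. DESeq2 1.42.0 was an alternative. The fits and the finder of molecules were tested on simulated data. A gene is read on its most counted probe, and 12412 genes were tested so. CPM use TMM scaling. A bound is set against 3 molecules over the group at 0, a floor that covers counting error only, since reads carry no molecular identifiers.

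The members and lists were chosen with earlier results of these data known. Genes named are the 10 members, up to 8 genes of each list called at 5 mg/kg in either sex, by size of change, and the 3 genes most like Igf1, Socs2 and Cux2; Ddx3y is from the list of sex chromosome genes, and Cyp2a4 was named after values were seen. Some genes that the rule gives are not reported here. Gene positions are from GENCODE. The list symbols Xist and Tf are not analysed here. The alternatives are those of the closing section.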

Additional observations from a re-analysis of the deposited data

Results flagged for a closer look

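A mouse stood apart from the other mice of its group in 7 of 75 combinations of a member and a group of 4 or 5 mice by Dixon's 95% criterion, which flags about 5% by chance. In 3 of the 7, Cish in both female groups and Cux2, the mouse was the only one of its group with reads, which the criterion always flags, so that rate does not apply to them. Among males at 0.1 mg/kg these were Ghr in mouse 201, low at 54.4 CPM, Stat5b in mouse 205, high at 19.1 CPM, Cish in mouse 204 at 14.8 CPM and Cux2 in mouse 203 at 3.78 CPM. The others were Cish in female control 151 at 3.23 CPM, Cish in female 351 at 0.5 mg/kg at 3.44 CPM and Igf1 in female control 155 at 112 CPM.

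The effect differed between the sexes, by the interaction test, for sex-biased genes and for Lepr but for no member. The female effect minus the male effect at 5 mg/kg on the log2 scale was 11.26 for Cyp4a12a, 9.71 for Cyp4a12b, 2.21 for Mup3 and 3.02 for Elovl3. It was -10.35 for Hao2, -8.50 for Cyp2b13, -8.36 for A1bg, -4.26 for Cyp2b9 and -3.04 for Cyp3a41a. At 0.5 mg/kg it was 9.05 for Cyp4a12a, 8.39 for Cyp4a12b, 1.90 for Mup3 and -11.76 for Lepr. Values past 5 in size rest on groups with no or nearly no reads and depend on the prior count.

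In the library of mouse 355, which no comparison used, Jak2 had 39.2, Socs2 63.2 and Cish 8.34 reads per 1000000, above the highest female control at 21.9, 39.2 and 3.34. These are 3.603, 5.81 and 0.767 molecules. Ghr had no reads there, against 67.7 to 146 reads per 1000000 in female controls.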

How the results depend on the processing

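The fall of Igf1 in males at 5 mg/kg passed in each of the fits tried on its most counted probe. Its other probe, with 2.00 molecules over males at 5 mg/kg and none in controls, gave a fitted 6.10 on the log2 scale, which depends on the prior count. With DESeq2 the number of members called was 2 in males at 0.5 mg/kg, 2 in each sex at 5 mg/kg, 1 in females at 0.1 mg/kg, 1 in each sex for 5 against 0.5 mg/kg, 1 for the sex difference of the effect at 0.1 and at 5 mg/kg and 1 between the sexes at 5 mg/kg. For the fits that follow, the share of all genes called was not taken, so their counts of members have no background beside them. In molecules, where the filter on low counts left out members with few molecules, the number was 1 in males at 0.5 mg/kg. It was 2 in females at 5 mg/kg (Ghr and Igf1) and 1 in each sex for 5 against 0.5 mg/kg. With only the groups compared it was 1 in males at 0.5 mg/kg and 2 between the control sexes. With probes summed it was 2 between the control sexes, 1 between the sexes at 5 mg/kg and 1 in females for 5 against 0.5 mg/kg, and without the filter 2 between the control sexes and 1 between the sexes at 5 mg/kg. With all 40 libraries 0 members were called in females at 5 mg/kg. Leaving out 1 mouse gave 0 to 1 members in males at 0.5 mg/kg, 0 to 1 in males for 5 against 0.5 mg/kg and 1 to 2 between the control sexes, and did not change the other counts of members.

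Male-biased genes that fell in males numbered 7 to 9 with 1 mouse left out. Female-biased genes that rose in males numbered 4 to 6, 8 without the filter and 3 with only the groups compared, and those that fell in females 4 to 6, and 7 without the filter. The cause was not tested. The median of all genes in males at 5 mg/kg was 0.11 on the log2 scale with TMM and 0.04 with DESeq2's size factors. Numbers of mice are not shared between groups. No paired analysis was possible because each number names 1 mouse. Members with a few molecules per mouse limit what could be detected.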

Other observations

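All 45 pairs of members were correlated within each sex after the mean of each dose group was subtracted from log2(CPM + 1), which made 90 relations, with permutations of mice within dose groups. The pair of Cish and Bcl6 drew attention in a first look at such a matrix that also held other codings of Cish, so its values describe the data from which it was picked. In the 20 males Pearson's r was -0.69 (permutation p = 0.00457, adjusted p = 0.411) and Spearman's rho -0.79 (permutation p = 0.00088, adjusted p = 0.0792). Without the 2 males farthest from the median of Cish, r was -0.73. The value depends on the probe: with the other Cish probe r was -0.34 (permutation p = 0.288) and rho -0.27, and with both probes summed r was -0.65 and rho -0.74. The most counted probe had reads in 9 of the 20 males. In the 19 females, of which 2 had reads on it, r was -0.19 (permutation p = 0.201, adjusted p = 0.807) and rho -0.30 (permutation p = 0.201, adjusted p = 0.821). With the other probe the females had r -0.17 and rho -0.23. With both probes summed, where 8 females had reads, r was -0.28 (permutation p = 0.254) and rho -0.47 (permutation p = 0.027). These other codings are not among the 90 relations and were not adjusted. No relation passed on Pearson's r after adjustment over the 90, and 1 did on Spearman's rho, so the pair is given as a value only.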
